A study of Mus musculus with 10 samples.

Results

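The Cxcl9, Cxcl10 and Cxcl11 locus of mouse macrophages is a stretch of chromosome 5 with 3 neighbouring chemokine genes, described here by the chromatin loops called at it. A loop is a pair of 10 kb bins whose contact was called in Hi-C, an assay that ligates and sequences pieces of DNA lying close together in the nucleus. Every loop with an anchor bin overlapping the 100 kb on either side of the transcription start site (TSS) of Cxcl9, Cxcl10 or Cxcl11 was taken, with gene positions from GENCODE M21 on GRCm38. The windows join into chr5:92228079-92465485 and hold 40 distinct bin pairs of 153264 in all 5 lists, or 73 calls of 301424.

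Bone marrow-derived macrophages from wild-type female C57BL/6 mice aged 2 to 3 months were differentiated with M-CSF at 20 ng/ml until day 6, and this holds for every group. M0[CTR] cells received no further cytokine. M2[IL-4] cells received IL-4, which polarizes macrophages to the alternative state, at 20 ng/ml for 24 h, and M2p[pIL-4] cells received the same IL-4, were washed and rested for 24 h. The IFNG group was given interferon gamma, the inflammatory cytokine that signals through JAK kinases, at 20 ng/ml for 3 h, and pIL-4 + IFNG cells went through IL-4, washout and rest before the same 3 h of IFNG. Each group has 2 replicates by its labels but 1 loop list, in which the replicates seem to be merged, so no value below has a replicate check. Every interval covers counting error only, and treats bin pairs that touch each other as separate observations.

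CXCL9, CXCL10 and CXCL11 are small secreted proteins that draw T cells and natural killer cells through the receptor CXCR3. Their genes are textbook targets of IFNG: gamma-activated sites (GAS) and interferon-stimulated response elements (ISRE) are the DNA motifs through which interferons act, and NF-kB contributes at the Cxcl10 promoter. In macrophages, CXCL10 in particular is widely used as a marker of the interferon response. Loop lists hold no RNA, so the level of these genes and the identity of the cells could not be read from them. The 5 macrophage marker genes checked (Spi1, Mertk, Itgam, Adgre1 and Csf1r) had between 22 and 78 loops within 100 kb of their TSS in every list.

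All 3 genes lie on the minus strand. Cxcl9 (ENSMUSG00000029417.9) is at chr5:92321347-92328079, Cxcl10 (ENSMUSG00000034855.13) at chr5:92346638-92348889 and Cxcl11 (ENSMUSG00000060183.6) at chr5:92359544-92365485. The TSS of Cxcl9 is 20.8 kb from that of Cxcl10, which is 16.6 kb from that of Cxcl11. Cxcl10 and Cxcl11 lie within the span of Art3, an ADP-ribosyltransferase gene on the plus strand at chr5:92331827-92414628. The annotation lists Cxcl9 and Cxcl10 as protein-coding and Cxcl11 as a polymorphic pseudogene in this strain's genome, a class for genes whose reading frame is intact in some strains and broken in others. The windows of the 3 genes overlap almost entirely, so their loop numbers are largely the same loops counted again and are not independent.

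The bins that carry most of the locus' loops were searched for the consensus of CTCF, the zinc-finger protein that sits with cohesin at many loop anchors. The consensus has 14 bases, both strands were searched and 1 mismatch was allowed. A pair of anchor regions recurred in all 5 lists: a bin holding the Sdad1 TSS, centred on the Cxcl9 side of the locus (chr5:92310001-92320000), and 3 bins within Art3 beyond Cxcl11 (chr5:92370001-92400000). Their matches are shown whole in capitals, 5′ to 3′ on the strand given, because they lie at the anchors every list shares.
Sdad1 bin, chr5:92312508-92312521, plus strand, 1 mismatch: CCACTAGGGGGAGC
Art3 region, chr5:92380201-92380214, plus strand, 1 mismatch: CCAGAAGAGGGCAC
Art3 region, chr5:92381967-92381980, minus strand, 0 mismatches: CCACCAGAGGGCAG
Both Art3 matches, on opposite strands, lie in the middle bin of the region, and the bins at chr5:92370001-92380000 and chr5:92390001-92400000 held no match. Such matches were common: 9 of the 28 anchor bins of the locus (32.1%) held one, against 24.5% of the 14792 bins of chromosome 5. For an exact match the shares were 3.57% (1 of 28) and 3.45%. A match describes letters only and is no measure of binding.

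The promoters of Cxcl9 and Cxcl10 are shown because the Cxcl10 TSS bin was an anchor only in the lists of IFNG-treated cells. The 250 bases before each TSS are from RefSeq (GRCm38.p6, minus strand, 5′ to 3′), whose promoter table matched 2 of the 3 genes, and capitals mark ISRE and NF-kB matches.
Cxcl9, chr5:92328080-92328329: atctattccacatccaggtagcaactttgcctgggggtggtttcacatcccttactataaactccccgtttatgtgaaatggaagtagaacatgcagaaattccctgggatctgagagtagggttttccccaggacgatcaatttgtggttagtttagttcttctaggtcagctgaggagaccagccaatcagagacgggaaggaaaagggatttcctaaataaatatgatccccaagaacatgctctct
Cxcl10, chr5:92348890-92349139: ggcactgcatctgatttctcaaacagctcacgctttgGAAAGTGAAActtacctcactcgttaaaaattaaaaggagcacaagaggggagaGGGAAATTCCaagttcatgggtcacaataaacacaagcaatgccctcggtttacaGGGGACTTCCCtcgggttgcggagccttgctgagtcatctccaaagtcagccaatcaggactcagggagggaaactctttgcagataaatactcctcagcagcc
The search covered both strands from 250 bases before to 50 after the TSS. In Cxcl10 an ISRE (GAAANNGAAA) ran from -213 to -204, an NF-kB consensus from -159 to -150, and overlapping NF-kB matches from -104 to -95 and -103 to -94. No GAS (TTCNNNGAA) was found in either window, and the Cxcl9 window held none of the 3 motifs. Only these fixed patterns were searched without mismatches, so sites that depart from them would be missed. Of 32851 promoters of this length, 8.30% held a GAS, 3.44% an ISRE and 8.46% an NF-kB match.

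The locus held the most loops in the IFNG list. Without IFNG there were 9 loops in M0[CTR] cells, 14 under IL-4 (M2[IL-4]) and 11 after its washout (M2p[pIL-4]), and with it 22 (IFNG) and 17 (pIL-4 + IFNG). This order of the lists is kept wherever 5 values follow each other. The lists differ in length, with 53424, 58260, 67728, 55012 and 67000 loops, so the numbers were scaled, and per 100000 listed loops they were 16.8, 24.0, 16.2, 39.99 and 25.4. Both IFNG lists were above the other 3 on this scale, pIL-4 + IFNG by a small margin over M2[IL-4]. The contacts behind the loops summed to 543, 829, 549, 1342 and 984, with medians per loop of 53, 44, 45, 56 and 45.

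**Figure D1:**
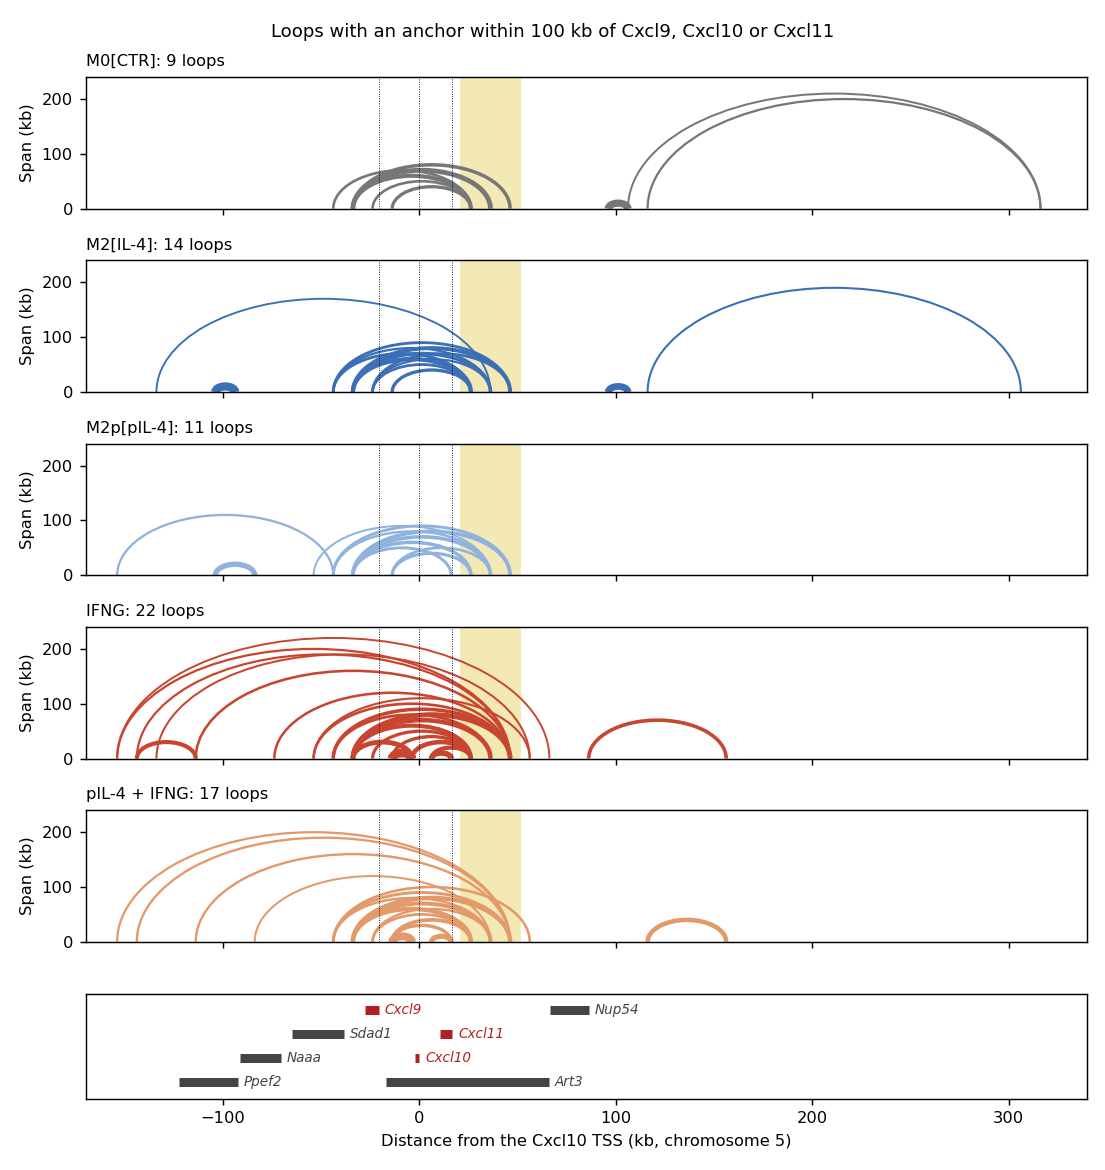
Every loop of the locus in each of the 5 lists, drawn as an arc between its bin centres with the height equal to its span in kb and the line width increasing with its contacts, over distance from the Cxcl10 TSS in kb; the dotted lines are the TSSs of Cxcl9, Cxcl10 and Cxcl11 from left to right, the shading is the Art3 region and the lowest row shows genes with a TSS in the locus. The arcs into the Art3 region reach 200 kb in both IFNG lists, 170 kb in M2[IL-4], 90 kb in M2p[pIL-4] and 80 kb in M0[CTR].

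Within 100 kb of the Cxcl9 TSS there were 6, 12 and 11 loops in the lists without IFNG, and 21 and 16 in the IFNG and pIL-4 + IFNG lists. For Cxcl10 the numbers were 7, 13, 11, 21 and 16, and for Cxcl11 they were 9, 13, 11, 21 and 17. The order of the lists was the same for the 3 genes, with IFNG highest and M0[CTR] lowest before scaling by list length. Averaged over the lists, the genes had 13.2, 13.6 and 14.2 loops, at percentiles 52.0, 52.9 and 54.0 of the genes with any loop, whose median was 12. The locus thus lay near the middle of all genes by its mean. Neighbours in the order of the lists were close: for the locus as a whole the intervals of M2[IL-4] and M2p[pIL-4] against M0[CTR], and of both IFNG lists against each other, held a ratio of 1, as given below.

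**Figure D2:**
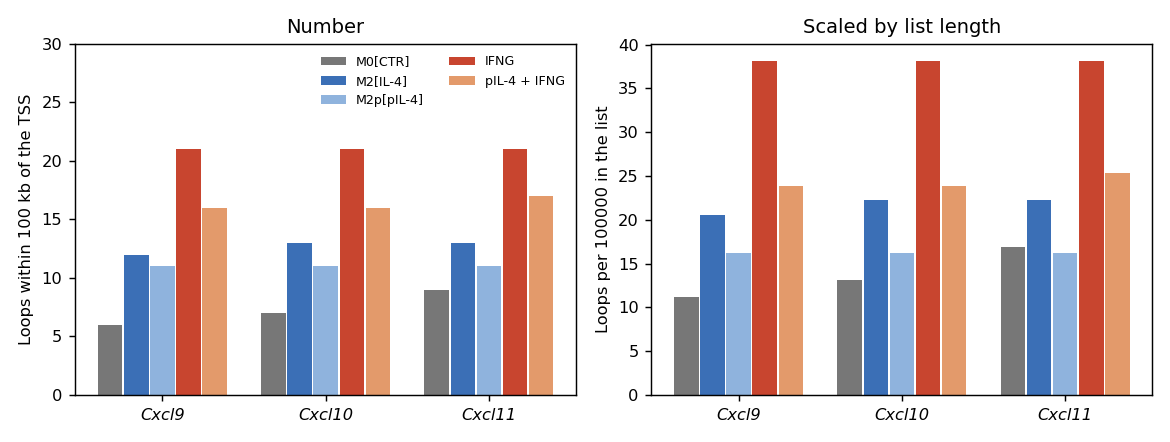
Loops within 100 kb of the TSS of Cxcl9, Cxcl10 and Cxcl11 in each list, as a number (left) and per 100000 loops of the list (right); bars are single lists and carry no error. The IFNG bar is highest for each gene, at 21 loops.

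IFNG in unprimed cells was compared with M0[CTR] to ask whether 3 h of the cytokine changes the loops of its target genes. The locus had 22 loops against 9, a log2 ratio after scaling of 1.25 (95% interval 0.071 to 2.55), or 2.37-fold. Gene by gene, with a pseudocount of 1 loop, the scaled fold was 3.05 for Cxcl9, 2.67 for Cxcl10 and 2.14 for Cxcl11. Without the pseudocount, the 95% intervals of their log2 ratios were 0.41 to 3.36, 0.25 to 3.02 and -0.0074 to 2.49. The interval of Cxcl11 thus held 0. Of the 18035 genes with a loop in any list, 15.6% were 1.5-fold or more higher in this comparison and the 3 chemokine genes were among them, ranking 289, 605 and 942. When touching bin pairs were merged into 1 loop, 9 against 3 were left, and the interval then held 0 (log2 1.54, -0.46 to 4.07).

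IFNG after IL-4 priming was compared with the primed cells, M2p[pIL-4]. The locus had 17 loops against 11, a log2 ratio of 0.64 with an interval from -0.53 to 1.88 (1.56-fold). Cxcl11 reached 1.52-fold, and Cxcl9 and Cxcl10 stayed at 1.43-fold; 14.7% of genes passed 1.5-fold. On the log2 scale the IFNG ratio in primed cells was lower than that in unprimed cells by 0.60, with an interval of the difference from -2.17 to 0.96, so a difference between them was not resolved at these numbers.

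**Figure D3:**
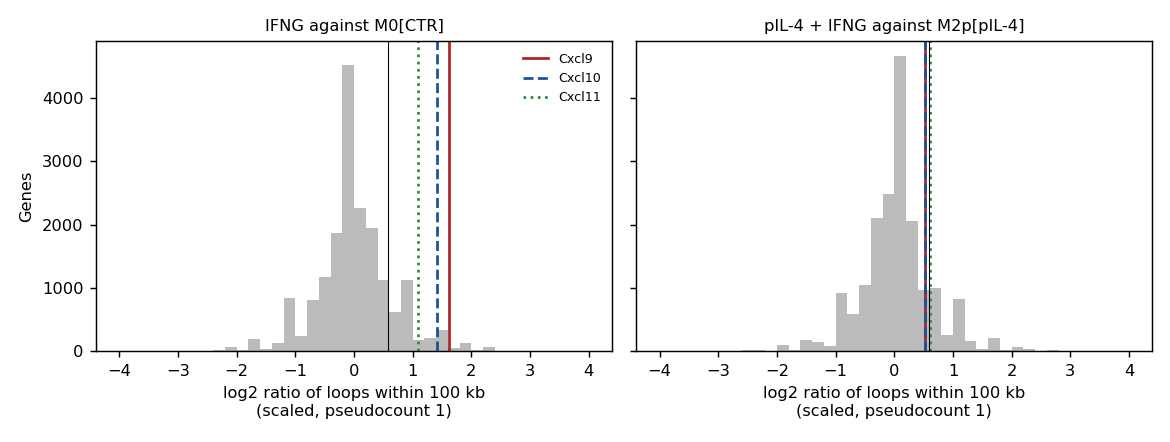
Distribution over 18035 genes of the log2 ratio of loops within 100 kb (scaled by list length, pseudocount 1) for both IFNG comparisons, with the 3 chemokine genes as coloured lines and the 1.5-fold limit as a thin black line. In unprimed cells the 3 genes lie at percentiles 98.4, 96.5 and 94.7, and in primed cells between 84.0 and 85.3, where the Cxcl9 and Cxcl10 lines coincide.

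The IL-4 comparisons and the comparison of the IFNG lists share control lists with those above, so their values are given side by side. M2[IL-4] against M0[CTR] gave 14 loops against 9 and a log2 ratio of 0.51 (-0.80 to 1.90). Cxcl9 (1.70-fold) and Cxcl10 (1.60-fold) passed 1.5-fold there and Cxcl11 (1.28-fold) did not, beside 14.3% of all genes. After washout, M2p[pIL-4] against M0[CTR] gave a log2 ratio of -0.053 (-1.46 to 1.40), with gene folds of 1.35, 1.18 and 0.947 and none past the limit that 15.1% of genes passed. The sign of that ratio turned with the settings, from -0.85 with the lists cut to equal length to 0.39 with a 50 kb window. Between the IFNG lists, pIL-4 + IFNG had 17 loops against 22, a log2 ratio of -0.66 (-1.66 to 0.32), and Cxcl9 and Cxcl10 at 0.634-fold were past the 1.5-fold limit downwards with 10.9% of genes, whereas Cxcl11 was at 0.672-fold.

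The loops shared by all groups ended in the Art3 region, and 3 of them spanned the 3 chemokine genes while the other spanned Cxcl10 and Cxcl11. Of the 40 bin pairs, 25 were in 1 list, 8 in 2, 3 in 4 and 4 in all 5. The pair from the Sdad1 bin to chr5:92370001-92380000 had 72, 76 and 58 contacts in the lists without IFNG and 72 and 75 in those with it. From the same bin to chr5:92380001-92390000 the contacts were 88, 60, 61, 81 and 71, lowest in both IL-4 lists without IFNG. From the same bin to chr5:92390001-92400000 they were 58, 68, 62, 89 and 78, highest in both IFNG lists. The last of the 4, from the Art3 TSS bin (chr5:92330001-92340000) to chr5:92370001-92380000, had 53, 53, 51, 54 and 64.

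The strength of a loop, its contacts over the median of loops of equal span in the same list, placed these loops from the Sdad1 bin above the median of their length in every list. It reached 1.81 in M0[CTR] for the pair ending at chr5:92380001-92390000, and 1.89 in IFNG and 1.73 in pIL-4 + IFNG for the pair ending at chr5:92390001-92400000. The latter stood at percentiles 98.3 and 97.2 of loops of 80 kb in those lists. That pair was also the strongest of the locus in M2[IL-4], at 1.48, and in M2p[pIL-4], at 1.38. The strongest pair thus ended 1 bin farther from the chemokine genes in the other 4 lists than in M0[CTR], which is a description of single lists.

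**Figure D4:**
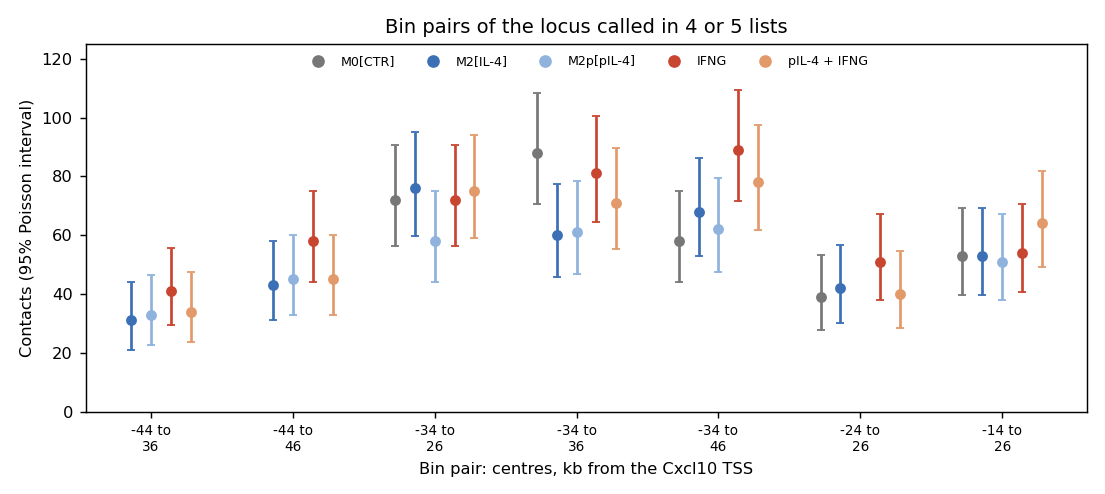
Contacts at the 7 bin pairs of the locus called in 4 or 5 lists, with 95% Poisson intervals, placed by the distance of their bin centres from the Cxcl10 TSS in kb; a list without a point did not hold the pair. Intervals of the lists overlap at every pair, with the widest spread between 58 and 89 contacts at the pair from -34 to 46 kb.

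Contacts were tested only at bin pairs present in both lists of a comparison, by an exact two-sided binomial test that compares the 2 lists and not the conditions, with Benjamini-Hochberg adjustment over all genes. No chemokine gene passed in any comparison. For IFNG against M0[CTR] each of the 3 genes had 347 contacts against 310 over 5 pairs (log2 ratio 0.12, -0.11 to 0.34, exact p = 0.292, adjusted p = 1), where 12 of 13170 genes (0.0911%) passed and 510 had an unadjusted p under 0.05. For pIL-4 + IFNG against M2p[pIL-4] there were 367 contacts against 310 over 6 pairs (0.26, 0.041 to 0.49, exact p = 0.0190, adjusted p = 1), with 3 of 13931 genes (0.0215%) past the threshold.

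For Cxcl10, M2[IL-4] had 475 contacts against 489 in M0[CTR] over 7 pairs (log2 ratio -0.041, adjusted p = 1 in the binomial test over all genes), and 2 of 13288 genes (0.0151%) passed. M2p[pIL-4] had 232 against 271 over the 4 pairs (-0.26, -0.52 to -0.0063, exact p = 0.0403, adjusted p = 1), beside 0 of 13496 genes (0%) and 423 at an unadjusted p under 0.05. In pIL-4 + IFNG there were 753 against 817 in IFNG over 12 pairs (-0.097, -0.24 to 0.048, adjusted p = 1 by the same exact test), beside 0 of 13776 genes (0%) and 332 unadjusted. These sums cover only pairs called in both lists.

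Of single pairs, the lowest p was at the Sdad1 bin to chr5:92380001-92390000, with 61 contacts in M2p[pIL-4] against 88 in M0[CTR] (log2 ratio -0.57, exact p = 0.0175, adjusted p = 1 over 28584 pairs). The same pair had 60 in M2[IL-4] (-0.55, exact p = 0.0261, adjusted p = 1). At the neighbouring pair to chr5:92390001-92400000, IFNG had 89 against 58 (0.57, 0.081 to 1.08, exact p = 0.0206, adjusted p = 1). Each of these comparisons had 1 locus pair with an unadjusted p under 0.05, out of 4, 7 and 5 pairs tested there, and 513, 516 and 475 such pairs over the 28584, 25934 and 25079 pairs shared by those lists.

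Loops at the TSS bins themselves were few. The Cxcl9 TSS bin (chr5:92320001-92330000) had 1, 3, 0, 1 and 2 loops, each with its partner in the Art3 region, and its pair with chr5:92370001-92380000 had 39 (M0[CTR]), 42 (M2[IL-4]), 51 (IFNG) and 40 (pIL-4 + IFNG) contacts. The Cxcl10 TSS bin (chr5:92340001-92350000) was an anchor in no list without IFNG, and in 3 loops of the IFNG list and 1 of the pIL-4 + IFNG list. These joined it to the adjacent bin with the Art3 TSS (172 and 156 contacts in the IFNG and pIL-4 + IFNG lists), to the Sdad1 bin (88, IFNG) and to chr5:92370001-92380000 (81, IFNG). The last of these had a counterpart within 25 kb in every list, and the others in M2p[pIL-4], so at that tolerance these pairs were not particular to the IFNG lists. Of 21756 gene TSS bins, 209 (0.961%) were anchors in both IFNG lists and in none of the others, and 34.8% to 39.8% were anchors in any 1 list. The Cxcl11 TSS bin (chr5:92360001-92370000) had 0, 0, 1, 1 and 2 loops. A pair absent from a list was below the caller's threshold there and has no count, so its contacts cannot be taken as 0.

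At the Cxcl10 TSS bin the strengths were close to those of other loops of their length, 1.17 and 1.08 for the adjacent bin, 1.16 for the Sdad1 bin and 1.07 for the Art3 bin. The Cxcl11 TSS bin and its neighbour (chr5:92350001-92360000 to chr5:92360001-92370000) formed an adjacent pair listed for both IFNG groups, with 103 and 95 contacts. This pair was weak for its span, with strengths of 0.70 and 0.66.

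Both IFNG lists, and no other, held 5 pairs in the very same bins. Besides the adjacent pairs just described they were long loops from chr5:92390001-92400000, the outermost bin of the Art3 region. It reached chr5:92190001-92200000 in Uso1, a vesicle-tethering factor gene, with 30 contacts in each list, chr5:92200001-92210000 with 29 and 32, and chr5:92230001-92240000 in Ppef2, a phosphatase gene, with 37 and 33, the IFNG value first. These 3 had spans of 160 to 200 kb and strengths between 0.97 and 1.12. The 5 pairs were 12.5% of the locus' 40, against 2.11% (3227) of all 153264. With pairs matched within 25 kb none of these 5 remained particular to the IFNG lists. The 3 long pairs then matched a pair of M2[IL-4] at chr5:92210001-92220000 to chr5:92380001-92390000, which had 22 contacts and a strength of 0.71. At this tolerance the share was 5% against 0.977% (1498), and the 2 pairs behind it were others, chr5:92190001-92200000 to chr5:92410001-92420000 (23 contacts, IFNG) and chr5:92260001-92270000 to chr5:92380001-92390000 (25 contacts, pIL-4 + IFNG). Within 50 kb no pair was left. No pair was in the other 3 lists and missing from both IFNG lists at any of these distances.

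The Art3 region, 4.52 to 34.5 kb upstream of the Cxcl11 TSS, was an anchor in 21 of the 40 pairs. It was chosen after its values were seen, as the most used bin with its neighbours of at least 5 pairs. It had 6, 11, 8, 14 and 12 loops. Its distinct partner bins on the Cxcl9 side numbered 4, 5, 4, 11 and 8, and its longest loops spanned 80, 170, 90, 200 and 200 kb. Loops of 100 kb or more from the region were 0, 1, 0, 5 and 4, while 69.6% to 72.3% of each whole list was that long. The bin at chr5:92390001-92400000 alone had 1, 3, 2, 7 and 5 loops, and was the bin in most pairs (8). The choice of the region used the loops of all lists, those with IFNG included, so these numbers are a description and carry no test.

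The flank from Nup54, a nuclear pore gene, outwards held 3, 2, 0, 1 and 1 loops, most in M0[CTR] and none in M2p[pIL-4]. Scarb2, which encodes a lysosomal membrane protein, had an adjacent pair (chr5:92440001-92450000 to chr5:92450001-92460000) with 140 (M0[CTR]) and 131 (M2[IL-4]) contacts, which the other lists did not hold. The M0[CTR] list had loops from Scarb2 to Ccdc158 with 24 and 30 contacts, and M2[IL-4] had such a loop with 26. IFNG instead had 60 contacts from Nup54 to chr5:92500001-92510000, and pIL-4 + IFNG had 81 from chr5:92460001-92470000 to the same bin. All 3 loops of M0[CTR] on this flank lie in the window of Cxcl11 and none in that of Cxcl9, which accounts for 9 loops at Cxcl11 against 6 at Cxcl9 in that list.

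The other genes with a TSS in the locus had nearly the same loop numbers, as their windows overlap those of the chemokines. Ppef2, Naaa (a lysosomal amidase) and Sdad1 had 6, 12, 11, 21 and 16 loops, as Cxcl9 did, Art3 had 6, 12, 11, 22 and 16, and Nup54 had 9, 13, 9, 21 and 17. The pattern therefore belongs to the neighbourhood and cannot be assigned to Cxcl9, Cxcl10 or Cxcl11 from loop numbers at this window.

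The other CXC chemokines did not share it. Of 12 genes checked, 11 had a loop in any list. In IFNG against M0[CTR] none was 1.5-fold higher and 6 were 1.5-fold lower, beside 15.6% and 13.4% of all genes. The median log2 ratio of the 11 was -0.63, beside -0.042 over all genes. The 6 were Cxcl5, Ppbp, Pf4, Cxcl3, Cxcl15 and Cxcl12. Cxcl5, a neutrophil attractant, had 20, 24, 23, 12 and 23 loops, and Pf4, platelet factor, had 14, 19, 18, 9 and 19. Apart from Cxcl12 (10, 8, 11, 6 and 11), the CXCR4 ligand, they lie in 1 cluster with overlapping windows and count as about 1 observation. In pIL-4 + IFNG against IFNG, 5 of the 11 were 1.5-fold higher beside 13.4% of all genes. They were Cxcl5, Ppbp, Pf4, Cxcl3 and Cxcl15 of that same cluster, so they again count as about 1 observation. This comparison also uses the same low IFNG numbers as IFNG against M0[CTR]. In the other 3 comparisons 0 were past the limit in either direction. Of all genes, 14.3% to 15.1% were higher there and 9.88% to 12.9% lower. No CXC chemokine passed the contact test in any comparison, with 10 or 11 tested in each, beside 0% to 0.0911% of all genes.

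Of 12 genes of the IFNG pathway, 2 were 1.5-fold higher and 1 lower in loop number in IFNG against M0[CTR], beside 15.6% and 13.4% of all genes, so these counts are near the background. The higher genes were Jak2 (17, 20, 29, 28 and 31 loops), which encodes a kinase of the IFNG receptor, and Dpp4 (0, 0, 1, 1 and 1), a peptidase that trims these chemokines, whose change is a single loop. Cxcr3, the receptor, was the lower one with 1, 0, 1, 0 and 1 loops. With priming, pIL-4 + IFNG over M2p[pIL-4], 0 were higher and 2 were lower (Jak1 with 18 and 9 loops, Ifngr1 with 28 and 17, M2p[pIL-4] first), beside 14.7% and 11.6% of all genes. In M2p[pIL-4] against M0[CTR], Jak1 and Dpp4 were higher and none was lower (15.1% and 9.88% of all genes). M2[IL-4] against M0[CTR] had 0 higher and 1 lower, Cxcr3 (14.3% and 12.9%), and between the IFNG lists Cxcr3 was higher and Jak1 lower in pIL-4 + IFNG (13.4% and 10.9%). The contact test compares the 2 lists and not the conditions. In it 1 of 10 pathway genes was lower in IFNG against M0[CTR], beside 12 of 13170 genes (0.0911%) past the threshold. This was Irf1, which encodes an interferon-induced transcription factor, with 368 contacts against 541 (log2 ratio -0.60, binomial test over all genes, adjusted p = 2.63e-06). Irf1 was also lower after priming, with 556 contacts in pIL-4 + IFNG and 724 in M2p[pIL-4] (-0.36, adjusted p = 0.0400 by the same exact test). There, 3 of 13931 genes (0.0215%) passed. No pathway gene was higher in this test in any comparison.

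The genes whose loop numbers followed the 5 lists most like the mean of the 3 chemokines, by Euclidean distance over the 5 lists after scaling, were Zfp629 (14, 22, 22, 34 and 33 loops, distance 0.254), Cela3b (6, 11, 10, 16 and 16, 0.256), Setmar (16, 27, 26, 38 and 38, 0.282), Cenpu (11, 19, 19, 27 and 26, 0.288) and Msantd1 (8, 14, 12, 18 and 17, 0.293). The median distance over 9743 genes was 1.14, and Cxcl9, Cxcl10 and Cxcl11 stood at 0.198, 0.0603 and 0.234 from their own mean. Before scaling, pIL-4 + IFNG was within 1 loop of IFNG in these 5 genes and 4 or 5 loops below it at the chemokines. The pIL-4 + IFNG list was the longer, with 67000 loops against 55012. After scaling, these 5 genes were therefore also lower in it than in IFNG. They were picked for a like course over the same lists, so sharing that direction is no independent check. Over all genes the median log2 ratio of pIL-4 + IFNG against IFNG was -0.043, and 10.9% were 1.5-fold or more lower.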

How the data were processed

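The deposited files are 5 lists of called loops, 1 for each group, with raw counts of contacts between pairs of 10 kb bins on mm10 (the same build as GRCm38). The authors' methods give HiC-Pro, run with bowtie2 in the nf-core/hic pipeline, and loops from HICCUPS at 25 kb with an FDR under 0.1. The caller and threshold behind the deposited 10 kb lists were not given in the sources used here. Submitters' processing notes also name FastQC, Juicer and HOMER. The lists hold only called pairs, so depth outside them is unknown.

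Loops were counted within 100 kb of the TSS of 21755 protein-coding genes and Cxcl11, scaled by list length, and called at 1.5-fold with a pseudocount of 1 among 18035 genes with a loop in any list. Intervals of ratios are 95%, exact from the binomial split of the 2 counts. Contacts at bin pairs present in both lists were summed per gene and tested with scipy 1.17.1 (Python 3.11.15), scaled by the totals at shared pairs. Adjusted p under 0.05 was the threshold. On simulated data with 200 genes changed 1.5-fold, the contact test for IFNG against M0[CTR] recovered 129 of them with 10 false calls among 12970 others (13170 genes). Each simulated gene was drawn independently from the binomial split that the test assumes, without variation between replicates. Real neighbouring genes share bin pairs, so these counts do not give the error rate in the data. Genes named were the members, genes of the locus, lists of CXC chemokine, IFNG pathway and macrophage marker genes, and the 5 genes most like the members among those with a mean of 10 loops or more. A further gene of the pathway list is not reported here. Members and lists were chosen with earlier results of these data known. Alternatives were the window, list length, merging, adjacent bins, a contact minimum, scaling and the matching distance.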

Additional observations from a re-analysis of the deposited data

How the results depend on the processing

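Of 69 alternatives over 12 results, 67 gave a loop-number ratio within the counting interval of the reported value, a contact result on the same side of the threshold or a like number of loops. Those intervals are wide and the alternatives reuse many of the same loops, so this count is a weak check. Ratios of M2p[pIL-4] against M0[CTR] whose sign turned still counted as within the interval. The number of loops in both IFNG lists only was 2 with matching within 25 kb, 5 in the same bins and 0 within 50 kb. The log2 ratio of IFNG against M0[CTR] lay between 1.14 (250 kb window) and 1.69 (50 kb window), and that of pIL-4 + IFNG against M2p[pIL-4] between 0.47 (adjacent bins left out) and 1.14 (equal list length). Cutting the lists to equal length left 9, 11, 5, 22 and 11 loops at the locus and moved M2[IL-4] against M0[CTR] to 0.29, M2p[pIL-4] against M0[CTR] to -0.85 (0.39 with a 50 kb window) and pIL-4 + IFNG against IFNG to -1; the last was -0.37 without scaling. No contact result passed the threshold under any alternative. No paired analysis was possible because a group came as 1 list with no column for a single replicate, and for the same reason no replicate could be left out. With 9 to 22 loops per list, the interval of IFNG against M0[CTR] alone among the 5 loop-number ratios left out 0, and it held 0 when touching pairs were merged (-0.46 to 4.07).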
